A study of Canis lupus familiaris with 55 samples.

Results

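XX DSD gonads at risk of d39 and d35 were compared to describe how gene expression in them changed over the days in which canine gonads begin to differentiate. The libraries were chosen by age, karyotype and pedigree as the labels give them, and number 15 of the 55 libraries of the series: 6 of d39 (C3624, C3630, C3632, C3633, C3636 and C3642) and 9 of d35 (C3509, C3510, C3511, C3525, C3571, C3572, C3573, C3575 and C3616). Each library was made from the gonad pair of 1 embryo of the American cocker spaniel and beagle cross in which XX disorder of sex development (DSD) segregates. All 15 embryos were XX, lacked *SRY* and carried the CFA9 guanine insertion; 4 of d39 and 4 of d35 were homozygous, and 2 of d39 and 5 of d35 were heterozygous. Histology was not done on these gonads, so which embryos would have formed testis tissue is unknown. XY littermates of the same pedigree (4 of d39 and 4 of d35), which carry the insertion and form testes, XX DSD gonads of other days, and XX age-matched controls of wild-type beagle litters (3 each of d37, d39 and d44) were used for comparison.

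In mammals the gonad forms as a bipotential primordium whose supporting cells become Sertoli cells in a testis or pre-granulosa cells in an ovary. *SRY*, through *SOX9*, directs the testis pathway, and *AMH* is a secreted product of Sertoli cells. RSPO1 and WNT4 signal through beta-catenin, and together with FOXL2 and follistatin they mark the ovary pathway. In XX DSD of this kind testis tissue arises without *SRY*.

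The 6 embryos of d39 came from 3 litters and the 9 of d35 from 4 litters, and no litter held both ages, so age and litter cannot be told apart and p-values over embryos that share a litter are too small. Relative depth, with the deepest library set to 1, had a median of 0.607 (0.401 to 0.895) at d39 and 0.737 (0.25 to 1) at d35, and log2 depth did not separate the ages (exact permutation over embryos, two-sided p = 0.981; depth is a modal ratio of low values). Library C3575 of d35 stood apart: its depth was 0.25, its median correlation with the other d35 libraries was 0.915 in the annotated genes, and loci under 1 kb deviated by 0.464 and loci over 5 kb by -0.264 (log2, medians) from the median of the 15 libraries. C3573, its littermate, deviated by 0.341 and -0.0977. In the discovery table, on which the main test ran, the median correlation with the other libraries of the age was 0.461 to 0.738 at d39 and 0.925 to 0.96 at d35, and over its loci with an annotated gene 0.96 to 0.966 at d39 and 0.93 to 0.967 at d35. In the d39 libraries between 8 and 863 unannotated loci reached 1 FPKM in that library alone, against 4 to 179 in d35 libraries. FPKM, the mapped fragments of a gene scaled to its length and to library size, is a relative measure, and in whole gonads fewer cells of a type and less RNA per cell cannot be told apart.

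Among 24110 loci tested, 99 were higher (0.411%) and 266 lower (1.1%) at d39 than at d35, by limma on log2(FPKM + 1) with an adjusted p under 0.05, a ratio of mean FPKM of at least 2 and a higher mean of at least 4. By adjusted p alone 2.68% of loci were higher and 4.62% lower, and 1.1% lay wholly higher and 1.47% wholly lower without overlap of the ages. With upper-quartile scaling, which moved the median of loci with a symbol to -0.27 log2 from -0.03, 57 were higher and 486 lower, so that 10.5% of calls were upward against 27.1% as deposited. The genes higher at d39 included *FST*, *GREB1*, *VCAN* and *COLEC12*, and those lower included the Sertoli cell gene *CLDN11*. *AMH*, another Sertoli cell gene, was lower in the table of annotated genes. Of 15 tested genes of the Sertoli and testis pathway list, however, 11 did not pass by adjusted p and 1 was higher. Of the 10238 tested loci with 1 gene symbol, 56 were higher (0.547%) and 94 lower (0.918%). In the annotated table, 98 of 13719 genes were higher (0.714%) and 222 lower (1.62%). Upper-quartile scaling of that table gave 109 higher and 207 lower, so that 34.5% of calls were upward against 30.6% as deposited. Its median was then 0.02 log2, so the downward shift under this scaling was seen in the discovery table alone. The count rested on single litters: without the litter of C3509, C3510 and C3511, 196 loci were higher, and without that of C3571, C3572, C3573 and C3575, 33 were higher and 142 lower. With 1 value per litter, 7 loci were higher and 108 lower.

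*FST*, which encodes the activin-binding protein follistatin, lies on CFA4 from 61779184 to 61785887 (CanFam3). Its values were 14.4, 17.5, 11.5, 14.0, 18.6 and 16.5 FPKM at d39 and had a lowest of 2.73, a median of 5.36 and a highest of 8.53 FPKM at d35. All d39 libraries lay above all d35 libraries, and the mean was 15.4 ± 2.63 FPKM at d39 and 5.6 ± 1.88 FPKM at d35 (SD, n = 6 and 9; log2 difference 1.35 ± 0.18 SE, adjusted p = 0.000491 by limma). *GREB1*, known as an estrogen-induced gene in human cells, lies on CFA17 from 8190160 to 8327683. It had between 22.3 and 34.2 FPKM (median 25.7) at d39, against 1.56 to 19.2 FPKM (median 9.03) at d35, with a log2 difference of 1.76 ± 0.38 (SE, limma adjusted p = 0.0124, and 0.122 without the litter of C3571, C3572, C3573 and C3575, 0.0955 without that of C3630, C3632 and C3633, and 0.0823 without that of C3636 and C3642). Among the d35 embryos the litter of C3509, C3510 and C3511 held the 3 highest *GREB1* values, 17.7, 11.3 and 19.2 FPKM, and C3525 the lowest. With 1 value per litter neither gene passed (adjusted p 0.123 for *FST* and 0.183 for *GREB1*, limma).

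**Figure D1:**
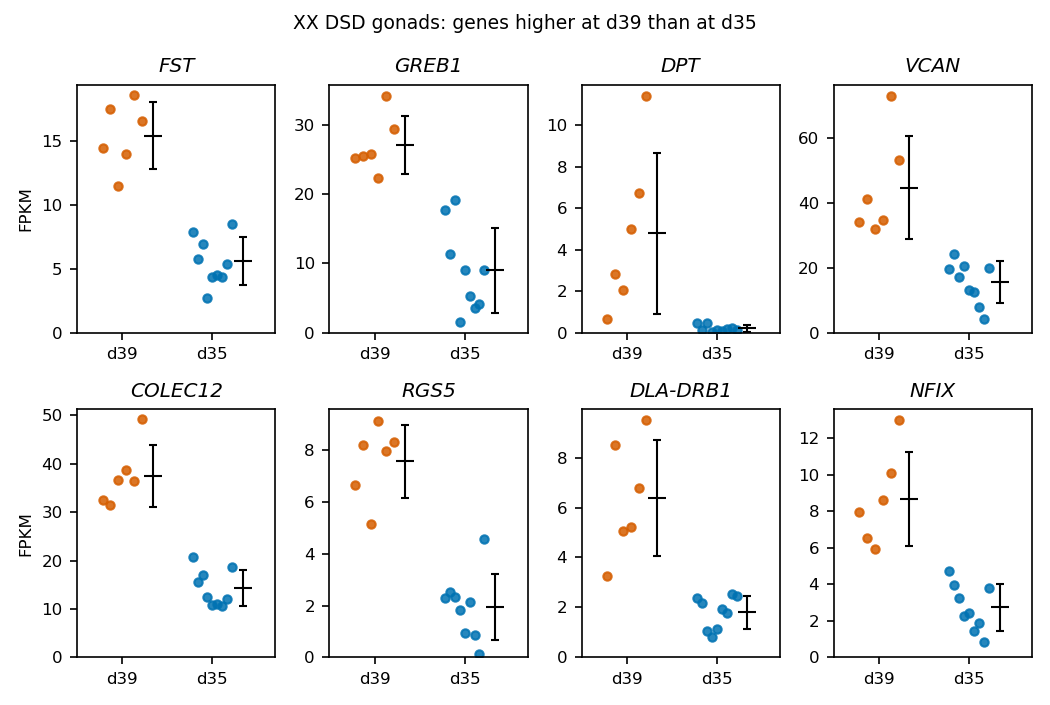
FPKM (vertical axes, from 0) of 8 genes higher at d39, with each XX DSD library as a point, d39 in orange and d35 in blue, and the mean ± SD as a bar to the right. In each panel all 6 d39 values lie above all 9 d35 values, as for *FST*, whose lowest d39 value was 11.5 and highest d35 value 8.53 FPKM.

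The other genes with the largest ratios among loci whose groups did not overlap (2.13% of loci with a symbol were wholly higher, 1.98% wholly lower) included genes of matrix proteins and of a pericyte marker. *DPT*, which encodes the matrix protein dermatopontin, had 0.678, 2.84, 2.08, 4.97, 6.74 and 11.4 FPKM at d39 and between 0.0147 and 0.461 FPKM at d35. C3624, the sole XX library of its litter, held the lowest d39 value. *VCAN*, which encodes the matrix proteoglycan versican, averaged 44.7 ± 15.9 FPKM at d39 and 15.5 ± 6.48 FPKM at d35 (SD; limma adjusted p = 0.00782, and 0.0511 and 0.0697 without the d39 litters of C3630, C3632 and C3633 and of C3636 and C3642). *COLEC12*, a scavenger receptor gene, averaged 37.5 ± 6.4 FPKM at d39 and 14.3 ± 3.79 FPKM at d35. *RGS5*, a pericyte marker, averaged 7.56 ± 1.42 FPKM at d39 and 1.96 ± 1.28 FPKM at d35. *NFIX*, a nuclear factor I transcription factor gene, averaged 8.7 ± 2.57 FPKM at d39 and 2.74 ± 1.29 FPKM at d35. *DLA-DRB1*, a class II histocompatibility gene with close paralogues among which reads may be split, averaged 6.39 FPKM at d39 and 1.8 FPKM at d35. *CNIH3*, *RIMS2*, *MAN1C1* and *SLC43A2* completed the 12, with adjusted p between 0.000167 and 0.0126 by limma.

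Of 17 tested collagen and matrix genes 5 were higher and 0 lower (adjusted p under 0.05 alone, which 4.75% of loci with a symbol passed upwards and 6.74% downwards), with a median log2 difference of 0.54 against -0.03 over all loci with a symbol. *COL14A1*, a fibril-associated collagen gene, had 61.2 to 81.4 FPKM (median 72.9) at d39 and 29.8 to 60.7 FPKM (median 35.7) at d35, with no overlap (limma adjusted p = 0.0023). *COL3A1*, of fibrillar type III collagen, averaged 1461 ± 216 FPKM at d39 and 969 ± 196 FPKM at d35, and *POSTN*, which encodes periostin, averaged 22.3 and 12.1 FPKM. Without the litter of C3571, C3572, C3573 and C3575 1 member of the list was higher, with 1 value per litter 0, and with upper-quartile scaling 1. In the interstitial and stromal list 4 of 17 were higher and 1 lower, with a median of 0.09. *OGN*, the osteoglycin gene, averaged 40.3 ± 11.8 FPKM at d39 and 19.6 ± 5.07 FPKM at d35, and *GLI1*, a target of hedgehog signalling, averaged 4.62 and 2.89 FPKM. *PDGFRA*, a receptor gene of interstitial progenitors, was the member that was lower, with 35.5 ± 7.29 FPKM at d39 and 52.1 ± 9.84 FPKM at d35 (limma adjusted p = 0.0273, and 0.055 without C3573 and C3575). *ASPN*, the asporin gene next to *OGN*, averaged 10.3 ± 1.41 FPKM at d39 and 25.2 ± 6.81 FPKM at d35, with no overlap. Both *OGN* and *ASPN* lie within *CENPP* on the other strand, which averaged 20.03 FPKM at d39 and 25.2 FPKM at d35, and the reads do not mark strand.

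Of 15 tested genes of the Sertoli and testis pathway list 3 were lower and 1 higher. By the same adjusted p 6.74% of loci with a symbol were lower and 4.75% higher. Without C3573 and C3575 5 members of the list were lower. *CLDN11*, which encodes the tight-junction protein claudin 11 of Sertoli cells, lies on CFA34 from 34911268 to 34929809. Its values were 3.02, 3.95, 3.53, 3.49, 1.35 and 2.76 FPKM at d39, against 7.36 to 27.6 FPKM (median 15.8) at d35, without overlap (log2 difference -2.02 ± 0.28 SE, limma adjusted p = 0.000599, and 0.0723 with 1 value per litter). At d35 the litter of C3571, C3572, C3573 and C3575 held the 4 highest values, 18.6, 21.1, 26.2 and 27.6 FPKM. *DMRT1*, a transcription factor gene of testis development, averaged 3.16 ± 1.41 FPKM at d39 and 6.58 ± 1.32 FPKM at d35 (limma adjusted p = 0.00678), and the ages met at 5.42 FPKM in the highest d39 library and 5.39 FPKM in the lowest d35 library. *GATM*, of creatine synthesis, averaged 5.74 ± 2.84 FPKM at d39 and 15.1 ± 6.19 FPKM at d35 (limma adjusted p = 0.027). Its mean in the 2 XX DSD libraries of d37 was 44.5 FPKM, above both ages. In XY littermates it averaged 492 FPKM at d39 and 679 FPKM at d35. The member that was higher, named after its values were seen, was the prostaglandin D synthase gene *PTGDS*, with 793 FPKM at d39 and 503 FPKM at d35. *AMH*, read from the annotated table, had 3.59, 3.74, 3.54, 4.30, 0.814 and 3.53 FPKM at d39 and 3.57 to 33.6 FPKM (median 16.8) at d35. The *AMH* groups overlapped at C3575 of d35 with 3.57 FPKM, and the log2 difference was -1.99 ± 0.36 (SE, limma adjusted p = 0.00229, and 0.256 in heterozygous embryos alone). Of the genes in that table, 7.09% passed upwards and 8.59% downwards by adjusted p, and 2.04% lay wholly higher and 1.95% wholly lower. In XY littermates *AMH* averaged 1207 FPKM at d39 and 1703 FPKM at d35.

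*SOX9* was low at both ages, with 1.8 to 4.93 FPKM (median 3) at d39 and 0.853 to 5.25 FPKM (median 3.79) at d35, and did not pass the test (limma adjusted p = 0.932, with a difference of either sign by setting). XY littermates averaged 79.4 FPKM at d39 and 63.4 FPKM at d35. *FOXL2*, the transcription factor gene of granulosa cells, had 15.3 to 21.6 FPKM (median 17.3) at d39 and 2.87 to 33.4 FPKM (median 22.7) at d35, and the groups overlapped (limma adjusted p = 0.992, with a difference of either sign by setting). A locus without a gene name overlaps *FOXL2* on the other strand, with 28.3 FPKM at d39 and 16.5 FPKM at d35, and the reads do not mark strand. *RSPO1* had 40 to 64 FPKM at d39 and 22.9 to 52.7 FPKM at d35 (limma adjusted p = 0.11), and *WNT4* had 21.4 to 28 FPKM and 10.7 to 27.5 FPKM (limma adjusted p = 0.0963); the *WNT4* difference was -0.14 log2 in the annotated table. Of 14 tested genes of the pre-granulosa and ovary pathway list, *FST* alone passed the test, and without C3573 and C3575 2 were higher. For this and the next 2 lists, 4.75% of all loci with a symbol were higher and 6.74% lower by adjusted p. *BMPR1B*, a bone morphogenetic protein receptor gene, averaged 3.04 ± 0.609 FPKM at d39 and 1.21 ± 0.577 FPKM at d35, and *INHBA*, the activin A subunit gene, averaged 6.24 ± 1.44 and 3.54 ± 1.1 FPKM, so that with *FST* 3 of 11 tested genes of the TGF-beta family were higher and 0 lower. *LEF1*, a beta-catenin partner and WNT target gene, was the 1 of 10 tested WNT targets that passed, with 55.3 ± 4.98 FPKM at d39 and 75.7 ± 10.7 FPKM at d35 (limma adjusted p = 0.0138, and 0.113 in the annotated table). The median log2 difference of that list was 0.08. *TCF7* and *AXIN2* went the other way from *LEF1* and missed the threshold (0.42 and 0.40 log2, limma adjusted p = 0.0513 and 0.0715).

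**Figure D2:**
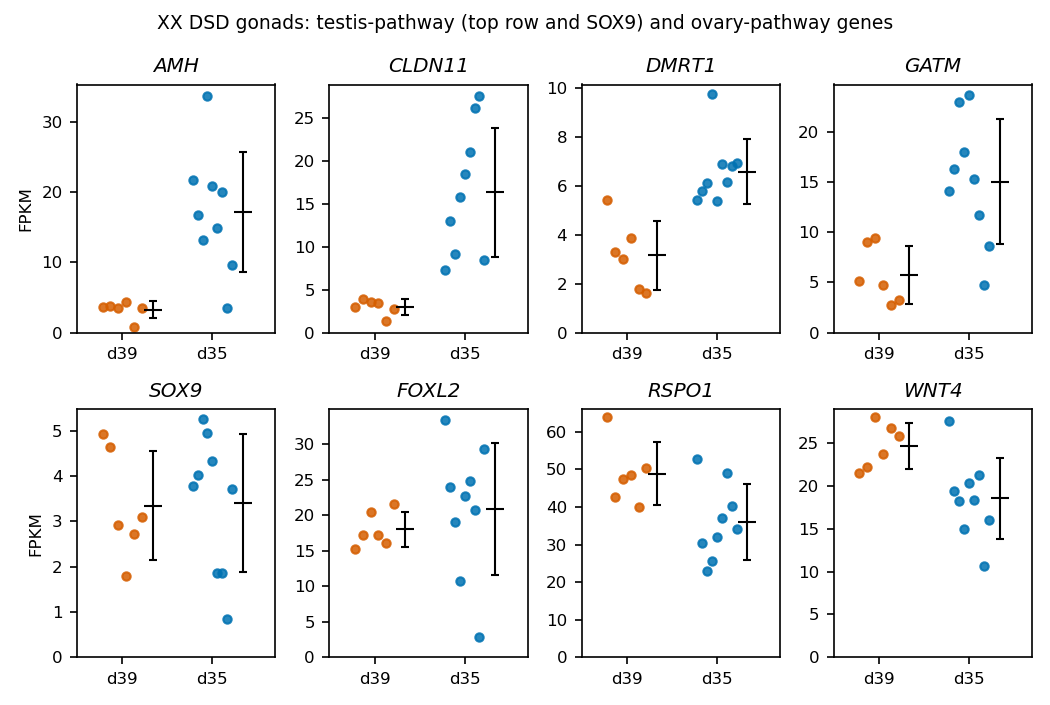
FPKM (vertical axes, from 0) of testis-pathway genes (*AMH*, *CLDN11*, *DMRT1*, *GATM*, *SOX9*) and ovary-pathway genes (*FOXL2*, *RSPO1*, *WNT4*) in each XX DSD library, d39 in orange and d35 in blue, with the mean ± SD. *CLDN11* does not overlap between ages, whereas *SOX9* and *FOXL2* do, and the lowest *FOXL2* value, 2.87 FPKM, is of d35.

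Among genes of the bipotential gonad, *WT1* averaged 69.8 ± 4.28 FPKM at d39 and 68.8 ± 4 FPKM at d35, *NR5A1*, in the annotated table, 58.1 ± 6.59 and 52.1 ± 8.37 FPKM (limma adjusted p = 0.349), and *GATA4* 56.3 ± 4.18 and 45.3 ± 7.35 FPKM (limma adjusted p = 0.0821). *WT1* is overlapped on the other strand by loci that include *EIF3M*, and the reads do not mark strand. The highest mean among those loci was 482.9 FPKM at d39 and 629 FPKM at d35. *EMX2*, a homeobox gene of gonad and urogenital ridge, averaged 89.6 ± 10.4 FPKM at d39 and 67.4 ± 6.42 FPKM at d35 (limma adjusted p = 0.0109). With upper-quartile scaling of the discovery table, which shifted the median of its loci with a symbol to -0.27 log2, *EMX2* did not pass (limma adjusted p = 0.354).

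*LHCGR*, the receptor of luteinizing hormone, was the 1 of 13 tested steroidogenesis and Leydig genes that passed, with 4.49 to 9.64 FPKM (median 6.93) at d39 and 0.81 to 6.01 FPKM (median 2.61) at d35 (limma adjusted p = 0.02). *LHCGR* shares its position with *GTF2A1L* on the other strand, and the reads do not mark strand. In the 2 XX DSD libraries of d37 *LHCGR* averaged 12.5 FPKM, above its d39 mean. The median log2 difference of the list was 0.71, against -0.03 over all loci with a symbol, of which 4.75% were higher and 6.74% lower by adjusted p. Summed, the list had 878 to 2394 FPKM at d39 and 375 to 1419 FPKM at d35 (lowest 757 without C3575), with overlap. *STAR*, which moves cholesterol into mitochondria, had 228.8, 490.3, 475.3, 373.1, 126 and 451.9 FPKM at d39 and 43.2 to 275.3 FPKM (median 194.2) at d35, with overlap and an adjusted p of 0.15 by limma. C3636 and C3624 held the lowest d39 values.

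Markers of other cell types moved in both directions. Over all loci with a symbol 4.75% were higher and 6.74% lower by adjusted p, and a list with 1 passing member is near that share. Of 15 tested endothelial genes 1 was higher and 3 lower: *VWF*, the von Willebrand factor gene, averaged 7.77 FPKM at d39 and 2.88 FPKM at d35, *KDR*, a receptor of vascular endothelial growth factor, 40.7 and 61 FPKM, and *SOX18*, which overlaps *TCEA2* on the other strand, 0.728 and 4.29 FPKM. *EMCN*, the endomucin gene, averaged 24.4 FPKM at d39 and 30.6 FPKM at d35. Among 16 tested macrophage and immune genes *CD74*, the class II invariant chain gene, alone passed, with 11.7 ± 4.36 FPKM at d39 and 3.27 ± 1.35 FPKM at d35. Summed over the list, macrophage and immune genes had 83.2 to 131 FPKM at d39 and 54.3 to 124 FPKM at d35. The mesonephros, duct and kidney list summed to 99.4 to 131 FPKM at d39 and 73.8 to 98.2 FPKM at d35, without overlap, with 2 of 7 tested members higher (*GATA3* and *EMX2*). The part of adjoining mesonephros in these values was not tested. *DDX4*, a germ cell marker, was listed at 0 to 0.25 FPKM at d39 and 0 to 0.187 FPKM at d35. In the erythroid list 0 of 8 tested genes passed in either direction, and in the hypoxia and glycolysis list 0 of 12, by limma.

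Other lists had up to 3 members that passed, several of them near the threshold, where 4.75% of all loci with a symbol were higher and 6.74% lower. With litter as a random block the adjusted p by limma was 0.0613 for *PLAGL1*, 0.0612 for *LIN28B*, 0.0606 for *STRA6* and 0.0595 for *ELAVL4*, and each of these calls was lost with 11 or 12 of the 15 libraries left out in turn, those of *H19* and *ALB* with 9 and that of *IER2* with 5. The *H19* locus, of an imprinted noncoding RNA, averaged 267.8 FPKM at d39 and 146 FPKM at d35. It has a spliced length of 95 bases and is overlapped on the other strand by a locus named *H19_1* and *H19_2* with 700.7 FPKM at d39 and 602.2 FPKM at d35, and its call was lost with upper-quartile scaling (limma adjusted p = 0.117). *PLAGL1*, an imprinted zinc finger gene, averaged 7.91 FPKM at d39 and 6.39 FPKM at d35. *LIN28B*, an RNA-binding protein gene that represses let-7, averaged 2.07 FPKM at d39 and 3.2 FPKM at d35 and was the 1 of 9 tested germ cell list members that passed. *EGR1*, an immediate early gene, averaged 9.91 FPKM at d39 and 4.42 FPKM at d35, whereas *IER2* of the same list averaged 6.23 and 9.94 FPKM. *STRA6*, a retinol transporter gene, averaged 6.21 FPKM at d39 and 3.73 FPKM at d35. *TNNI1*, of slow muscle troponin, averaged 0.537 FPKM at d39 and 2.19 FPKM at d35, and *ELAVL4*, a neuronal gene, 3.68 and 10.04 FPKM. *ALB*, the albumin gene, averaged 2.91 FPKM at d39 and 0.957 FPKM at d35, and was the 1 of 3 tested liver genes that passed. *ALB* shares its position with *ANKRD17* on the other strand. The other tested members, *APOA1* (7.19 and 2.79 FPKM) and *SERPINA1* (2.05 and 1.1 FPKM), did not pass (limma adjusted p = 0.142 and 0.451). *AHSG*, another hepatocyte gene, was too low to be tested, at 0.0787 and 0.0276 FPKM.

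**Figure D3:**
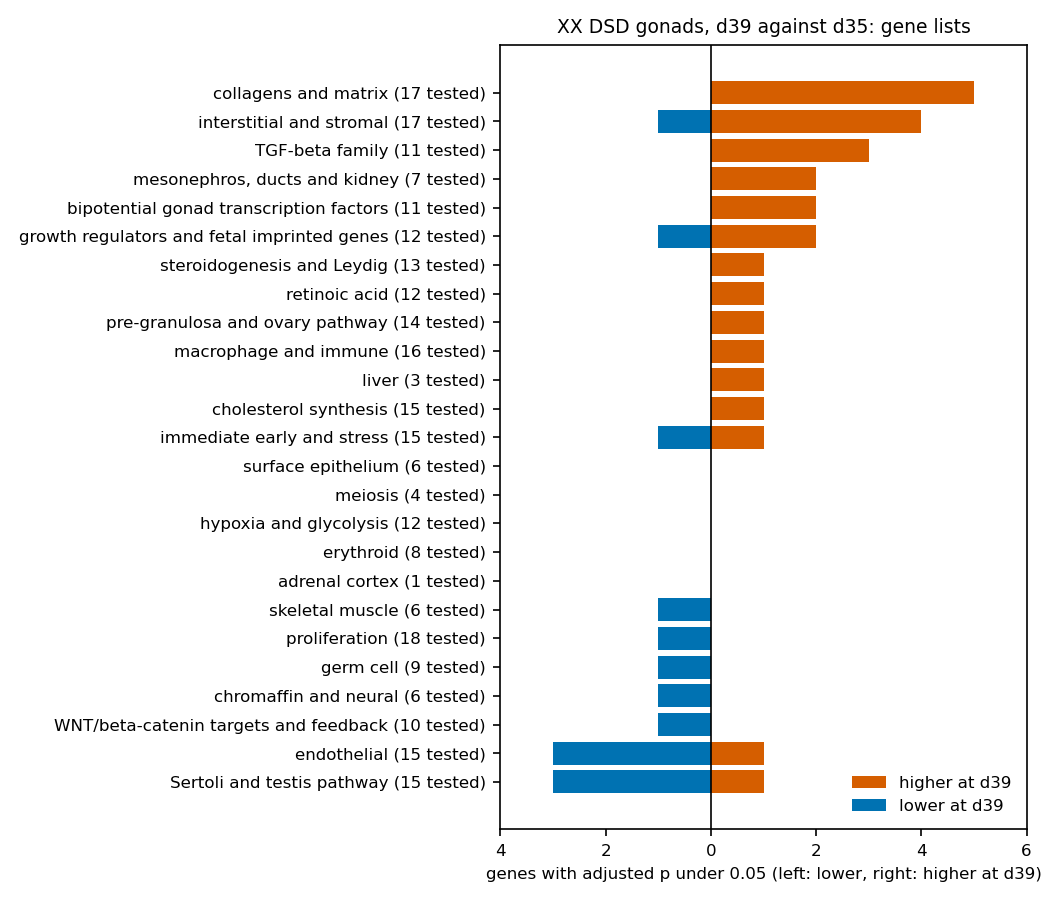
Number of genes (horizontal axis) of each fixed list that were higher (orange, right) or lower (blue, left) at d39 than at d35 in XX DSD gonads, with the number tested in parentheses. Collagen and matrix genes had 5 higher and 0 lower, and Sertoli and testis pathway genes 1 higher and 3 lower. Over all loci with a symbol 4.75% were higher and 6.74% lower (adjusted p under 0.05).

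The remaining genes with the largest ratios among those lower at d39 included *PRKCDBP* and *CCL26*. *PRKCDBP*, also called *CAVIN3*, of caveolae, lies on CFA21 from 29661980 to 29663263. It had 13.8, 10.02, 18.9, 14.0, 9.93 and 14.6 FPKM at d39, against 49.5 to 247.5 FPKM (median 122.5) at d35, without overlap (log2 difference -3.16 ± 0.26 SE, limma adjusted p = 5.66e-06). *C1orf122*, which shares its position with *MTF1* and *YRDC* on the other strand, averaged 3.56 FPKM at d39 and 56.5 FPKM at d35. *IL17D*, a cytokine gene, averaged 1.91 FPKM at d39 and 18.6 FPKM at d35, and *CCL26*, a chemokine gene, 70.1 ± 28.3 and 407 ± 201 FPKM. *C17orf89*, *EVA1B*, *FOXO6*, *CTXN1*, *CCDC85B* and *CRSP-2* were also among the 12. Of the 94 loci lower at d39, 36 (38.3%) had a spliced length under 1 kb, against 6 (10.7%) of the 56 higher and 1060 (10.3%) of the 10238 tested. The part of transcript length in these differences was not tested. With the length trend of each library removed 76 loci with an annotated gene were higher and 166 lower, against 73 and 172 without that step. These counts do not give the lengths of the loci that passed after that step, so they do not decide the part of length.

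Values of other days are given for genes chosen by their d39 and d35 values. C3694 and C3696 are the libraries of d41 by the labels, whereas the embryo listing of the paper gives a day before d39. The paper staged both by developmental criteria as older than d39 and younger than d42, so their exact day is uncertain. *GREB1* averaged 20.5 FPKM at d37 (n = 2), 34.4 at d41 (n = 2) and 41.8 at d43 (n = 2), and XX controls averaged 17.6, 35.1 and 37.8 FPKM at d37, d39 and d44 (n = 3 each). *CLDN11* averaged 10.8 FPKM at d37, 3.61 at d41 and 1.12 at d43, against 4.23, 1.67 and 3.09 FPKM in XX controls of d37, d39 and d44. *CCL26* averaged 172 FPKM at d37 and 78.6 at d41. For *GREB1* and *CLDN11* the d43 means lay nearer to that of d39 than to that of d35. *PRKCDBP*, by contrast, averaged 50.4 FPKM at d37, 50.7 at d41 and 61.1 FPKM in the 1 library of d44. Its mean in XX controls of d39 was 121 FPKM. Among the XX groups of d35 to d44 its d39 XX DSD mean, 13.6 FPKM, was the lowest. The same held for *C1orf122*, *IL17D*, *C17orf89*, *EVA1B*, *FOXO6*, *SOX18*, *CTXN1* and *CCDC85B*. Thus *C1orf122* averaged 3.56 FPKM at d39, against 15.9 at d37, 17.55 at d41 and 37.4 FPKM in XX controls of d39. Of the 94 loci with a symbol that were lower at d39, 18 (19.15%) lay above XX controls of d39, against 52.85% of tested loci. In XX DSD gonads of d41 to d44, 65 (69.15%) lay above d39, against 42.92%. Of the 56 higher loci, 36 (64.29%) and 30 (53.57%) did so. Both sets were chosen by the same d39 values that enter these shares and the lowest means above. The shares were therefore tilted in advance, the shares of tested loci are no fair baseline for them, and no conclusion is drawn from them. In XY littermates 4 (4.255%) of the 94 and 49 (87.5%) of the 56 rose, against 42.82%. The cause was not tested. These levels are set side by side without a test, since litters and pedigree differ.

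**Figure D4:**
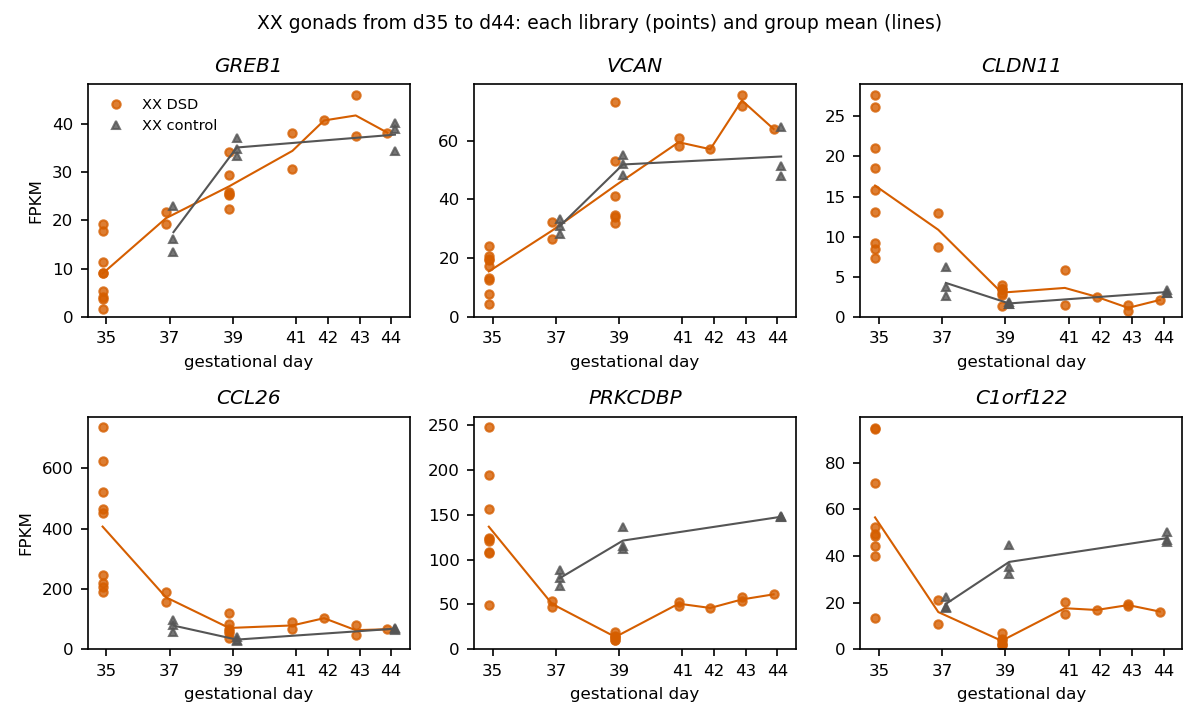
FPKM (vertical axes, from 0) of 6 genes by gestational day (horizontal axes) in XX DSD gonads (orange circles) and XX controls (grey triangles), with each library as a point and group means joined. The exact day of the d41 libraries is uncertain, but the paper staged them as older than d39. At d43 *GREB1* and *VCAN* are high and *CLDN11* and *CCL26* low. *PRKCDBP* and *C1orf122* have their lowest means at d39 in XX DSD gonads, 13.6 and 3.56 FPKM.

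The change between ages was compared with that in XY littermates by an interaction term over the 4 groups. All 8 XY libraries came from the 5 litters that also held XX libraries. With litter as a random block 268 loci passed, and *PLK1*, *RACGAP1*, *ASPN* and *KIF20A* had adjusted p between 0.00134 and 0.00269 by limma. Of 39123 loci tested the difference of the changes was positive for 180 (0.46%) and negative for 74 (0.189%) at an adjusted p under 0.05 (1.3% and 0.52% of loci with a symbol). In XY littermates 3.19% of loci were higher and 6.24% lower at d39 (7.19% and 15.2% of loci with a symbol). The count was 254 in all 23 libraries, 634 without C3575, 389 without the XY littermate C3626 of d39 and 87 without the XY littermate C3574 of d35; it ranged from 87 to 634 over all libraries left out in turn. *FST* averaged 1.3 FPKM at d39 and 1.56 FPKM at d35 in XY littermates, and its change in XX exceeded that in XY by 1.51 ± 0.27 (log2, SE, limma adjusted p = 0.0126). *PRKCDBP* averaged 5.11 FPKM at d39 and 117 FPKM at d35 in XY littermates, and the difference of its changes missed the threshold (1.19 ± 0.47 log2, SE, limma adjusted p = 0.357). The change of *CLDN11* differed by -1.87 ± 0.44 (SE, limma adjusted p = 0.0516).

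Genes of cell division were among those with the lowest adjusted p. *PLK1*, a mitotic kinase gene, averaged 31.8 ± 2.11 FPKM at d39 and 29.6 ± 4.57 FPKM at d35 in XX DSD gonads, and 19.4 FPKM at d39 and 42.5 FPKM at d35 in XY littermates (difference of changes 1.21 ± 0.17 log2, SE, limma adjusted p = 0.00222). *RACGAP1* and *KIF20A*, of cytokinesis, had differences of 1.07 and 0.90. Of 18 tested proliferation genes 17 were lower at d39 in XY littermates and 6 had a positive difference of changes, whereas in XX DSD gonads *CDK1* alone of the list was lower, with 74.5 ± 2.53 FPKM at d39 and 103 ± 25.7 FPKM at d35 (limma adjusted p = 0.0475). That call was near the threshold: it was lost with any of 13 of the 15 libraries left out and with litter as a random block (0.0665), and without C3575, which had the highest value, the adjusted p was 0.0101. *MKI67*, with the largest difference of the list, went the other way and just missed the threshold (log2 difference 1.42, limma adjusted p = 0.0509). It had 25.5 to 30.3 FPKM at d39 and 1.68 to 29.9 FPKM at d35, with overlap. The median log2 difference of the list in XX DSD gonads was -0.11. *ASPN* was lower at d39 in XX DSD gonads, and averaged 12.5 FPKM at d39 and 10.1 FPKM at d35 in XY littermates (difference of changes -1.46 ± 0.22, SE, limma adjusted p = 0.00366).

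**Figure D5:**
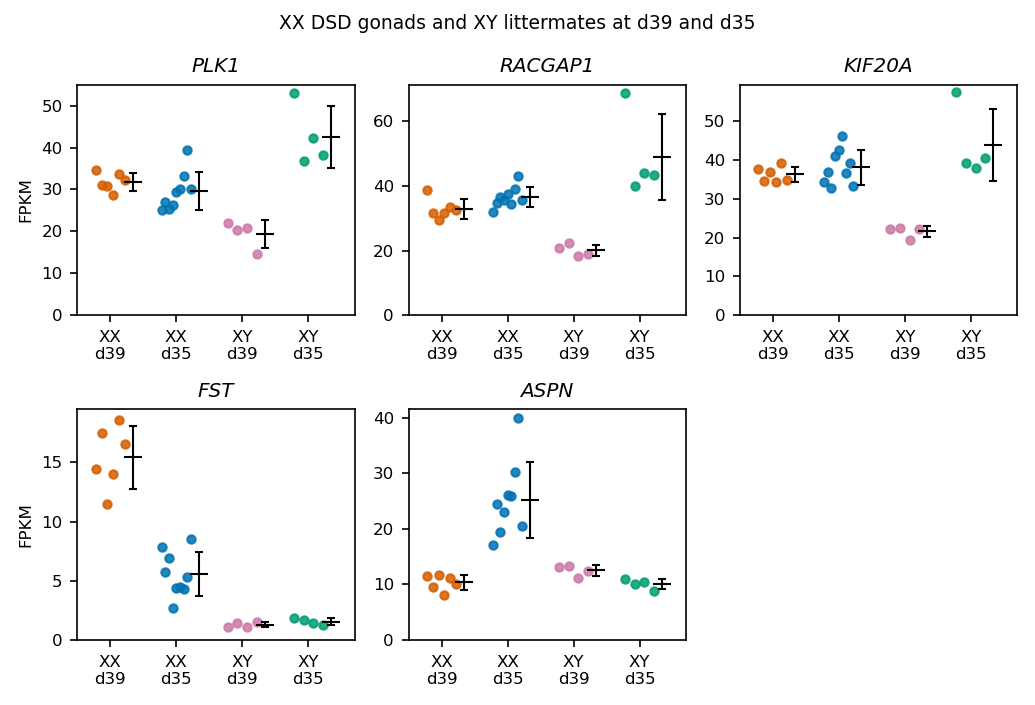
FPKM (vertical axes, from 0) of 5 genes in XX DSD gonads and XY littermates of d39 and d35, each library as a point with the mean ± SD. *PLK1*, *RACGAP1* and *KIF20A* are lower at d39 in XY littermates, *FST* is higher at d39 in XX DSD gonads, where the mean was 15.4 FPKM, and *ASPN* is lower there.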

How the data were processed

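FPKM values were taken as deposited by the authors, in a table of annotated genes and a table of loci from a transcript assembly guided by the annotation. The authors trimmed single-end reads of polyA libraries with cutadapt, aligned them against CanFam3 by TopHat2 2.0.13 and computed FPKM in Cuffnorm (Cufflinks 2.2.1). Libraries were pooled for sequencing by group, and the pools of single libraries are not known here. Litters and genotypes came from the paper. Loci with 1 gene symbol of their own were named, and *AMH* and *NR5A1* came from the annotated table. Besides the overlaps given above, some named loci share their position with a gene on the other strand, which the reads do not mark. Among them were *RSPO1* (with *MANEAL*), *STAR* (*ASH2L*), *IER2* (*STX10*), *IL17D* (*N6AMT2*), *KDR* (*SRD5A3*) and *GATM* (*SPATA5L1*).

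Ages were tested in limma 3.58.1 under R 4.3.3 (linear models, moderated with a trend) after log2(FPKM + 1). Tests were two-sided, and Benjamini-Hochberg adjustment covered all features whose mean reached 1 FPKM at either age. The code was tested on simulated data. The difference from XY littermates was an interaction over 23 libraries. Depth was the commonest ratio of values up to 0.15 FPKM between libraries, with 53 of 55 estimates the same within 0.05 log2 against 3 references.

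Named genes were the 12 higher and 12 lower loci with the largest ratios among those without overlap (Ensembl identifiers left out), up to 3 per list with the lowest adjusted p, 10 fixed genes and 5 by interaction; some of them are not reported here. Members and lists were chosen with earlier results of these data known. Alternatives covered pseudocount, filter, scaling, trend, litter, genotype, depth, thresholds and left-out libraries and litters; analyses of annotated loci alone, of the length trend and without C3573 and C3575 were added after seeing the data. The litter correlation was 0.0523 in the discovery table and 0.101 in the annotated table.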

Additional observations from a re-analysis of the deposited data

Results flagged for a closer look

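Single libraries stood apart in their group for 11 of 136 combinations of gene and age, by the gap to the nearest library over the range; about 1 in 20 such groups is marked by chance. C3575 of d35 gave 4 of them: *CRSP-2* 24.2, *CDK1* 166, *DDX4* 0.187 and *NR5A1* 33.0 FPKM. C3525 of d35 gave *DMRT1* 9.73 and *ELAVL4* 31.1 FPKM. At d39, C3642 gave *CRSP-2* 0.311, *VWF* 13.8 and *IER2* 8.80 FPKM, C3633 gave *GATA3* 1.10 FPKM and C3636 gave *AMH* 0.814 FPKM.

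The change between ages differed between XX DSD gonads and XY littermates, by the interaction in limma, for 5 named genes, with differences of changes (log2) of 1.51 for *FST*, 1.21 for *PLK1*, 1.07 for *RACGAP1*, -1.46 for *ASPN* and 0.90 for *KIF20A*.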

How the results depend on the processing

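Counts of loci that passed all criteria moved with litters, thresholds and scaling. In the discovery table, upper-quartile scaling gave 57 higher and 486 lower, against 109 and 207 in the annotated table. With 1 value per litter the count was 115 (7 higher, 108 lower), in homozygous embryos alone 76 (13 and 63) and in heterozygous embryos alone 90 (26 and 64), with fewer samples in each. A higher mean of at least 1 FPKM gave 569 (159 and 410) and of at least 10 FPKM 232 (47 higher). Without the litter of C3509, C3510 and C3511 196 were higher. Without that of C3571, C3572, C3573 and C3575 the count was 175 (33 and 142), without that of C3630, C3632 and C3633 192 (54 and 138), and without that of C3636 and C3642 237 (56 higher). Among loci with an annotated gene 172 were lower, and with the length trend removed 242 passed (166 lower). In the annotated table the counts were 169 (22 and 147) with 1 value per litter, 135 (30 and 105) in homozygous and 66 (6 and 60) in heterozygous embryos, 571 (168 and 403) and 189 (43 and 146) with means of at least 1 and 10 FPKM, 193 higher without the litter of C3509, 183 (39 and 144) without that of C3571, 189 (45 and 144) without that of C3630, and 55 higher without that of C3636. The causes were not tested. With each library left out in turn, 282 to 414 loci passed in the discovery table (75 to 120 higher, 207 to 302 lower) and 260 to 365 in the annotated table (76 to 125, 184 to 255).

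The count of loci whose change differed from XY littermates was 55 without trend and 1420 without C3573 and C3575, and 87 to 634 with each library left out; the change in XY littermates alone passed in 2253 to 4651 loci. Relative depth differed by -0.14 log2 (exact permutation p = 0.587) without C3575, against 0.01 with it.

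Of 55 named genes that passed, 50 passed with litter as a block, 49 without C3573 and C3575, 44 with upper-quartile scaling, 12 with 1 value per litter, 11 in homozygous and 6 in heterozygous embryos. With each library left out, 36 passed every time, 9 lost the call with 1 to 5 libraries and 10 with more. Under the alternatives run, the sign of the difference (log2) turned for 6 named genes, none of which had passed the test as reported. *FOXL2* had 0.019 with a pseudocount of 0.1, 0.037 with median-ratio scaling, 0.40 in heterozygous embryos, 0.22 without the litter of C3509, 0.16 without the length trend, 0.14 in the annotated table, and -0.29 to 0.10 with each library left out. *SOX9* had -0.17 with upper-quartile scaling, -0.029 with 1 value per litter, -0.16 in homozygous and -0.019 in heterozygous embryos, -0.33 without the litter of C3571, -0.21 without C3573 and C3575, and -0.11 to 0.15 with each library left out. *WT1* had -0.25 with upper-quartile scaling (limma adjusted p = 0.0447), -0.017 with 1 value per litter, -0.011 without the length trend and -0.00085 to 0.053 with each library left out. *WNT4* had -0.14 in the annotated table, *PLK1* -0.16 with upper-quartile scaling and -0.080 in heterozygous embryos, and *KIF20A* 0.0017 in homozygous embryos and 0.025 without the litter of C3571.

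No paired analysis was possible because the labels give animal identifiers, not replicate numbers shared by the ages, and no litter held both ages. Litters shared by XX and XY embryos entered as a random block (268 loci with a different change, against 254). Promoter motifs were not searched.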
